A study of Oryza sativa with 4 samples.

Results

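The long arms of rice chromosomes 1 and 5 descend from the same ancestral region, which was doubled in the whole-genome duplication that preceded the divergence of the grasses. Acetylation of lysine 5 on histone H4 (H4K5ac) was compared between these arms in leaves of the rice hybrid Hanyou73, which was bred for drought resistance, sampled at the grain filling stage. The data were 2 peak lists from chromatin immunoprecipitation sequencing with an antibody against H4K5ac, 1 for well-watered and 1 for drought-stressed plants. Each list stood for 2 libraries, and the labels do not say whether these came from separate plants. Members were all peaks with a midpoint on chromosome 1 from 18.7 to 41.2 Mb (22.5 Mb of arm) or on chromosome 5 from 14.4 to 27.9 Mb (13.5 Mb). These limits leave out the surroundings of the centromere and the outermost part of each arm, and the rule uses positions alone. Of the 28883 well-watered peaks, 3492 (12.1%) were members, 2298 on chromosome 1 and 1194 on chromosome 5. Of the 26147 drought-stressed peaks, 3146 (12.03%) were members, 2064 and 1082.

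As background, acetylation of the H4 tail removes positive charge from lysines, loosens the hold of the tail on DNA and creates binding sites for bromodomain proteins. H4K5ac is laid down by histone acetyltransferases and is mostly found over transcribed chromatin, often close to gene starts. After the ancient duplication most duplicated genes lost a copy from either arm, while the surviving pairs still lie in a similar order along both chromosomes. No gene was assigned to a peak here, so the comparison is of the arms as stretches of chromatin, not of gene pairs.

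The score of a peak is the authors' own value, with no stated scale. It was used within a list, except that pairs were also grouped by the geometric mean of both scores. Read depth is unknown, and with 1 list per condition there is no spread between replicates and no p-value. The 95% intervals below take peaks as independent of their neighbours and show counting error alone. Differences between the arms are given as chromosome 5 against chromosome 1, and "beyond counting error" is written where the interval of a difference left out 0, or that of a ratio left out 1.

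Peaks were denser on the arm of chromosome 1. In the well-watered list it carried 102.1 peaks per Mb (95% interval 98.0 to 106.4), and the arm of chromosome 5 carried 88.4 (83.5 to 93.6). The ratio was 0.866 (0.807 to 0.929), a difference beyond counting error. Counts varied more along each arm than counting error alone gives. In 1 Mb windows the well-watered variance was 4.99 times the mean on chromosome 1 and 3.71 times on chromosome 5. The intervals of density and of its ratio leave this variation out. In the drought-stressed list the densities were 91.7 (87.8 to 95.8) and 80.1 peaks per Mb (75.4 to 85.1), with a ratio of 0.874 (0.812 to 0.940). Peaks covered 6.40% of the chromosome 1 arm and 5.61% of the chromosome 5 arm under well-watered conditions. Under drought they covered 5.30% and 4.71%. Among peaks at or above the median score of their list the difference was within counting error, with ratios of 0.915 (0.826 to 1.01) in the well-watered and 0.953 (0.856 to 1.06) in the drought-stressed list.

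The difference in density depended on which stretches were set side by side. Both arms were sparse near their proximal limit and denser outward, and chromosome 1 extends 9 Mb further. Over the first 13.5 Mb from the proximal limit, chromosome 1 held 1289 well-watered peaks and chromosome 5 held 1194, a ratio of 0.926 (0.856 to 1.002). The drought-stressed numbers over the same distance were 1143 and 1082, a ratio of 0.947 (0.871 to 1.03), so neither list showed a difference beyond counting error there. Over the last 13.5 Mb before the distal limit, chromosome 1 held 1559 well-watered and 1398 drought-stressed peaks. The ratios were then 0.766 (0.710 to 0.826) and 0.774 (0.715 to 0.838). This comparison by distance was chosen after the densities had been seen.

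Counted outward in 1 Mb steps, both arms held their fewest peaks close to the proximal limit. The first 4 windows of chromosome 1 held 64, 60, 64 and 66 well-watered peaks, and those of chromosome 5 held 70, 51, 83 and 71. The next windows were fuller on both arms: the fifth to ninth held 87 to 109 peaks on chromosome 1 and 80 to 91 on chromosome 5. On both arms window 10 stood above its neighbours, with 135 and 114 peaks, and the drought-stressed list had a local maximum in the same windows, with 117 and 109. That window was picked after the values were seen. Its shared place depends on counting in Mb from the proximal limit. Cut into 10 equal lengths, the arms hold it in length 5 on chromosome 1 and in lengths 7 and 8 on chromosome 5. Whether the arms share a maximum was not tested.

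**Figure D1:**
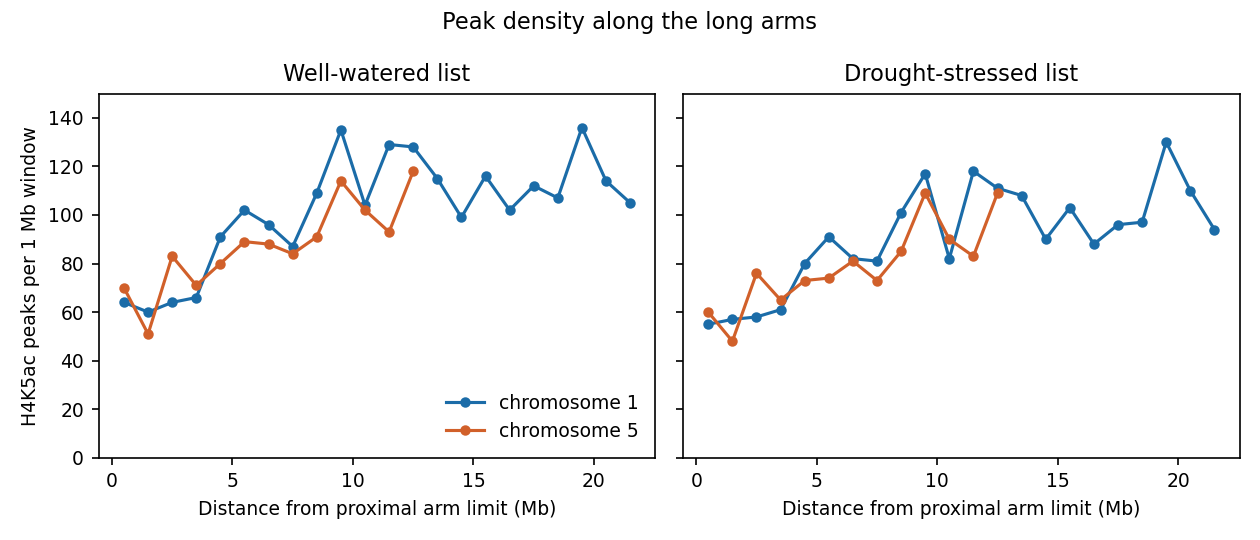
Number of H4K5ac peaks in consecutive 1 Mb windows (y axis) against the distance of the window's centre from the proximal limit of the arm in Mb (x axis), for the well-watered (left) and drought-stressed list (right), with a line for each arm. Both arms start at 48 to 83 peaks in the first 3 windows, both have a local maximum in window 10, and chromosome 1 goes on at 99 to 136 well-watered peaks beyond the end of chromosome 5.

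Cut into 10 segments of equal length, numbered outward, the arms had these densities. On chromosome 1 the density climbed from 60.9 well-watered peaks per Mb in segment 1 to 120.4 in segment 5 and 124 in segment 6, then stayed between 108 and 120.4 to the distal limit. On chromosome 5 it went from 63.0 in segment 1 to 80.7 in segment 5 and 120 in segment 10. The drought-stressed list ran from 56 to 112.4 peaks per Mb in segment 6 of chromosome 1 and from 54.1 to 111.9 in segment 10 of chromosome 5. Segments 9 and 10 together held 1.72 times as many well-watered peaks as segments 1 and 2 on chromosome 1 and 1.64 times on chromosome 5. Spearman's rho of density with position over the segments was 0.723 and 0.909 in the well-watered list, and 0.794 and 0.939 in the drought-stressed list. The long arms of the other 10 chromosomes, drawn in the same way from approximate centromere positions, had well-watered values from 0.450 to 0.903 and drought-stressed values from 0.322 to 0.924.

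On both arms the fullest window lay in the outer and the emptiest in the inner part. On chromosome 1 the fullest 1 Mb window, from 37.7 Mb to 38.7 Mb, held 136 well-watered and 130 drought-stressed peaks. The emptiest well-watered window, from 19.7 to 20.7 Mb, held 60 peaks, and the emptiest drought-stressed window, from 18.7 to 19.7 Mb, held 55. On chromosome 5 the fullest was the last window, from 26.4 to 27.4 Mb, with 118 and 109 peaks, and the window from 23.4 to 24.4 Mb also held 109 drought-stressed peaks. The emptiest was from 15.4 to 16.4 Mb, with 51 and 48.

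The chromosome 1 arm was the densest of the 12 long arms and had the lowest median score. Its well-watered peaks had a median score of 322 (interquartile range 98 to 768), those of the chromosome 5 arm 361 (98 to 887.5), and all peaks off these arms 395 (112 to 920). The ratio to the rest was 0.815 (0.747 to 0.882) for chromosome 1, beyond counting error, and 0.914 (0.808 to 1.04) for chromosome 5, which was not. The drought-stressed medians were 286, 320 and 349. The other 10 long arms had well-watered densities of 49.5 to 93.8 peaks per Mb and median scores of 332 to 482.5.

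High-scored peaks were fewer on both arms than among all other peaks. The highest score quintile of the well-watered list took 14.6% of the chromosome 1 members and 17.9% of the chromosome 5 members, against 20.6% of all other peaks. The differences were -5.96 percentage points (-7.44 to -4.38) and -2.66 (-4.79 to -0.33). The drought-stressed list gave 14.7% and 16.8%, against 20.6%. The chromosome 1 share was the lowest of the 12 long arms in the well-watered list. The other 10 ran from 15.6% on chromosome 2 to 27.9% on chromosome 12, with chromosome 5 inside that range. Under drought the other 10 ran from 14.5% to 27.8%, and the arms of chromosomes 1 and 5 both lay inside. The highest-scored peak of the chromosome 1 arm, well-watered 22265577 to 22266538 (962 bp), scored 12340 in the well-watered list, and its drought-stressed counterpart of 944 bp scored 7488. The highest-scored on chromosome 5, well-watered 15760345 to 15761197 (853 bp), scored 6005, and its counterpart of 820 bp scored 4345. The highest drought-stressed score of the chromosome 1 arm, 8100, belonged to another peak, 33553228 to 33553582 (355 bp), whose well-watered counterpart of 340 bp scored 4730. On chromosome 5 the same peak led both lists. The second-highest well-watered peaks were 33422496 to 33423218 on chromosome 1 (5091) and 24969184 to 24970079 on chromosome 5 (4670), and the second-highest drought-stressed peak of chromosome 5 was 21479190 to 21479929 (3081).

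**Figure D2:**
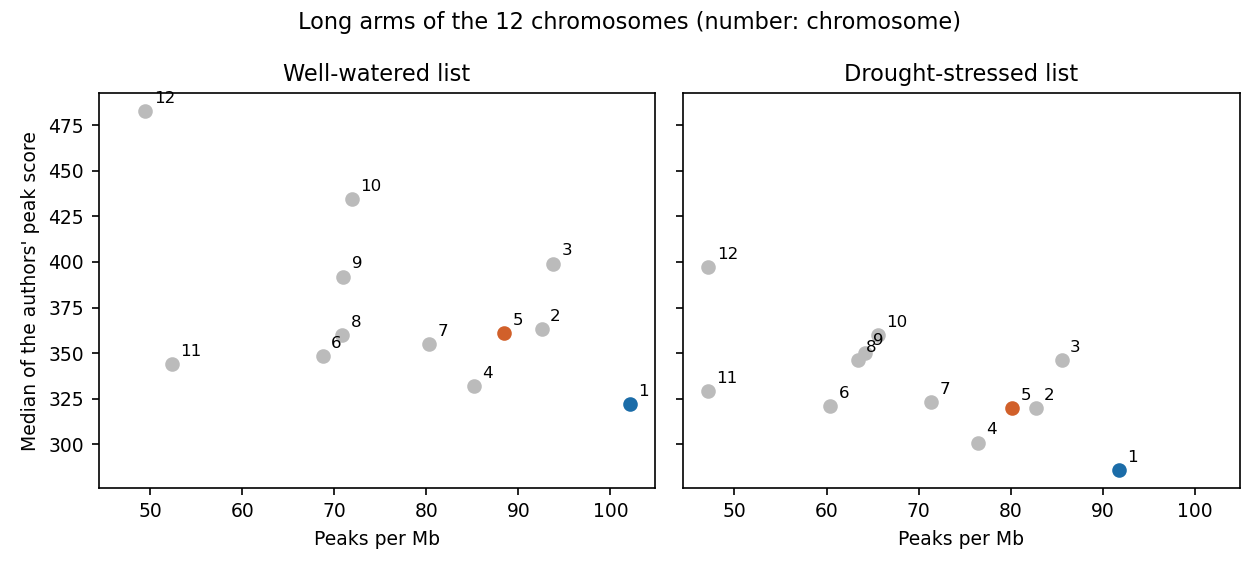
Median of the authors' peak score (y axis) against peaks per Mb (x axis) for the long arms of the 12 chromosomes, each point labelled with its chromosome, in the well-watered (left) and drought-stressed list (right). Chromosome 1 (blue) lies farthest right and lowest in both lists, at 102.1 peaks per Mb and a median score of 322 in the well-watered list, while chromosome 5 (orange) lies at 88.4 and 361.

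Peak widths differed little between the arms. The well-watered median was 622 bp on chromosome 1 (95% interval 606 to 633, interquartile range 376 to 802) and 642.5 bp on chromosome 5 (617 to 663, interquartile range 372 to 816). The difference of 20.5 bp had an interval from -7.27 to 46.5. Under drought the medians were 570 bp (556 to 582) and 585.5 bp (570 to 604), a difference of 15.5 bp (-4.10 to 38.7). The chromosome 5 median stood above that of all peaks off these arms (608 bp well-watered, 569 bp drought-stressed), by 34.5 bp (8.51 to 55.4) and 16.5 bp (0.49 to 35.4). The chromosome 1 median did not, at 14 bp (-2.76 to 25.7) and 1 bp (-13.6 to 13.6).

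On both arms the most frequent width in the well-watered list was 601 to 800 bp, with 629 peaks on chromosome 1 (27.4%) and 341 on chromosome 5 (28.6%). Peaks of at most 200 bp made up 8.49% and 9.21%, and peaks over 1 kb 10.4% and 10.2%. In the drought-stressed list the share over 1 kb was 6.30% and 7.02%. Width went with score in each list: well-watered peaks of at most 200 bp had a median score of 50 on both arms, and those of 801 to 1000 bp had 689 and 851. Widths over 1 kb had lower median scores again, 500 and 532.5.

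The widest peaks of the chromosome 1 arm coincided between the lists: well-watered 33546729 to 33549398 (2670 bp) met drought-stressed 33546733 to 33549414 (2682 bp), with no loss of width. It lay next to the 355 bp peak that led the drought-stressed scores of the arm. On chromosome 5 the widest well-watered peak, 16420703 to 16422957 (2255 bp, score 113), met 3 drought-stressed peaks of 475, 663 and 213 bp. The widest drought-stressed peak there ran from 16150306 to 16152288 (1983 bp), inside a well-watered peak of 2228 bp. On chromosome 1 the most divided well-watered peak, 37790472 to 37792802 (2331 bp, score 231), also met 3 drought-stressed peaks, of 465, 471 and 722 bp. In all, 49 well-watered peaks on chromosome 1 (2.13%) and 26 on chromosome 5 (2.18%) met more than 1 drought-stressed peak. In the other direction the counts were 5 (0.24%) and 6 (0.55%). These shares were not computed over all peaks, so they cannot be read as a trait of the arms.

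Spacing was measured from the end of a peak to the start of the next on the same arm. The well-watered median was 5978 bp on chromosome 1 (5726 to 6203, interquartile range 3115 to 10591) and 6383 bp on chromosome 5 (5988 to 6841, interquartile range 3533 to 12293). The ratio of the medians was 1.07 (0.992 to 1.16), within counting error, although the densities differed beyond it. With both limits moved 1 Mb inward it was 1.09 (1.01 to 1.19), which left out 1. Under drought the medians were 6669 and 7056 bp, with a ratio of 1.06 (0.967 to 1.14). The chromosome 1 arm had the shortest median spacing of the 12 long arms in both lists.

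The share of distances of 2 to 5 kb was higher on chromosome 1, and that of 20 to 50 kb on chromosome 5. These classes were picked from a longer set, and the differences were not tested. Distances of 2 to 5 kb made up 25.1% (23.3% to 26.9%) of the well-watered ones on chromosome 1 and 21.6% (19.4% to 24.1%) on chromosome 5. Of the well-watered distances, 8.53% (7.46% to 9.75%) lay between 20 and 50 kb on chromosome 1 and 11.9% (10.2% to 13.9%) on chromosome 5. Under drought the shares of 20 to 50 kb were 10.4% and 14.3%. Those of 2 to 5 kb were 22.5% (20.8% to 24.4%) and 19.9% (17.6% to 22.4%). The intervals for 2 to 5 kb overlapped in each list. The shortest distances had like shares, with 11.1% of well-watered distances under 1 kb on chromosome 1 and 10.4% on chromosome 5. Stretches of at least 50 kb with no peak in either list numbered 34 on chromosome 1, 2148 kb in sum or 9.55% of the arm. On chromosome 5 there were 22 of them, 1604 kb in sum or 11.9%. The longest on chromosome 1 ran from 21716768 to 21879009 (162 kb) and the next from 19693441 to 19806973 (114 kb). On chromosome 5 they ran from 15283906 to 15451634 (168 kb) and from 18194348 to 18317875 (124 kb). All 4 lay in the inner part of their arm, at 4.42% to 28.1% of its length.

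In 100 kb windows the chromosome 1 arm had a median of 10 well-watered peaks and the chromosome 5 arm 8. Of 225 windows on chromosome 1, 91 (40.4%) held at least 12 peaks, and of 135 on chromosome 5, 31 (23.0%) did. Only 1 window of chromosome 1 and 2 of chromosome 5 held none.

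Peaks with a close neighbour were narrow and low in score on both arms. Well-watered members less than 1 kb from another had a median width of 433.5 bp on chromosome 1 (397 to 494) and 454 bp on chromosome 5 (390 to 522). Members with a nearest neighbour 5 to 20 kb away had 721 bp (703 to 743) and 732.5 bp (706 to 761). The median scores were 125 and 137 for close peaks and 511 and 550.5 for the more distant ones. The same order held in the drought-stressed list, with 409 and 371 bp for close peaks and 643 and 661 bp for peaks 5 to 20 kb apart. Width did not rise further among the 34 and 23 well-watered members at least 20 kb from a neighbour. Their medians were 584.5 bp (302 to 736) and 687 bp (435 to 806), with scores of 334.5 and 967. These values were not computed for peaks off these arms.

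**Figure D3:**
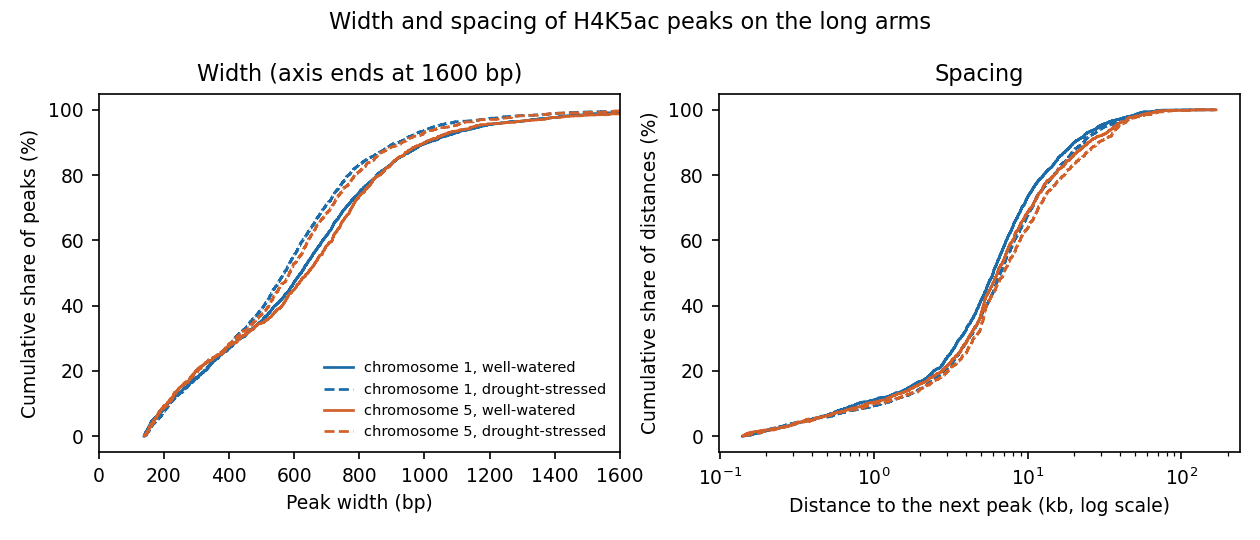
Cumulative share of peaks by width in bp (left) and of distances to the next peak in kb on a log axis (right), for both arms (blue chromosome 1, orange chromosome 5) in the well-watered (solid) and drought-stressed list (dashed). The curves of the arms nearly coincide in width, with medians of 622 and 642.5 bp in the well-watered list, and the spacing medians of chromosome 5 lie to the right of those of chromosome 1, at 6383 against 5978 bp in the well-watered list.

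A peak with no overlap of at least 1 bp in the other list is called condition-only. Of the well-watered members, 385 of 2298 on chromosome 1 (16.8%, Wilson 95% interval 15.3% to 18.3%) and 176 of 1194 on chromosome 5 (14.7%, 12.8% to 16.9%) were well-watered-only, beside 15.1% of the whole list. The difference between the arms was -2.01 percentage points (-4.48 to 0.57), within counting error. Chromosome 1 stood 1.74 percentage points above the peaks off these arms (0.21 to 3.39) and had the highest share of the 12 long arms, with the other 10 at 11.3% to 16.5%. Chromosome 5 stood 0.27 percentage points below the same peaks (interval of the difference -2.22 to 1.90).

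Drought-stressed-only members were fewer, at 105 of 2064 on chromosome 1 (5.09%, 4.22% to 6.12%) and 42 of 1082 on chromosome 5 (3.88%, 2.88% to 5.21%), beside 4.89% of the whole list. The difference was -1.21 percentage points (-2.64 to 0.38). Both shares were near that of the whole list. The number of drought-stressed per well-watered peak was 0.898 on chromosome 1, 0.906 on chromosome 5 and 0.906 elsewhere.

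Condition-only members were narrow and low in score on both arms. The well-watered-only medians were 233 bp and a score of 54 on chromosome 1, and 216.5 bp and a score of 50 on chromosome 5. Shared well-watered members had 674 and 694 bp, with median scores of 446 and 483.5. Not a single condition-only member of either arm or list lay above the median score of its list. Such peaks were rare off these arms too. In the fourth and the highest score quintile, 0.18% and 0.06% of the well-watered peaks there were well-watered-only. In the fourth drought-stressed quintile 0.02% were drought-stressed-only. The share with a peak from the other list at most 1 kb away was 24.9% (20.9% to 29.5%) on chromosome 1 and 26.1% (20.2% to 33.1%) on chromosome 5 for well-watered-only members. For drought-stressed-only members it was 34.3% (25.9% to 43.8%) and 45.2% (31.2% to 60.1%). This share was not computed over all condition-only peaks.

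Since the score and the condition-only share move together, the arms were also compared within score quintiles of the whole list. In the lowest well-watered quintile 62.5% of the chromosome 1 members and 61.0% of the chromosome 5 members were well-watered-only. Of the peaks off these arms 60.2% (58.8% to 61.5%) were, near both shares. In the second, 61 of 486 (12.6%, 9.90% to 15.8%) and 16 of 240 (6.67%, 4.14% to 10.6%) were, against 14.7% of the peaks off these arms. That difference of -5.88 percentage points (-9.99 to -1.18) was singled out among 4 such comparisons after their values were seen, and the interval is not adjusted for this. In the other quintiles there were 3 well-watered-only members in all, 1 on chromosome 1 and 2 on chromosome 5. Off these arms the shares in those quintiles were also low, at 0.99%, 0.18% and 0.06%.

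Along the arms the well-watered-only share showed no steady course. On chromosome 1 it was highest in segment 5, with 61 of 271 peaks (22.5%, 17.9% to 27.8%), and lowest in segment 10, with 27 of 248 (10.9%, 7.59% to 15.4%). Segment 5 also had the lowest median score of the arm, 246, against 393.5 in segment 10; the part of score in the difference was not tested. On chromosome 5 the share ran from 10.1% in segment 8 to 18.2% in segment 4, with intervals that overlapped. Members with a neighbour under 1 kb away were well-watered-only in 31.2% of cases on chromosome 1 (27.2% to 35.5%) and 23.6% on chromosome 5 (18.7% to 29.4%). These intervals overlapped. With the nearest neighbour 1 to 5 kb away the shares were 13.7% and 13.4%. Such shares were not computed for peaks off these arms, and the difference between the arms was not tested.

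The highest-scored well-watered-only peaks of chromosome 1 were 37412246 to 37412980 (735 bp, score 247), 36135221 to 36135568 (348 bp, 194) and 36296883 to 36298137 (1255 bp, 176). The first lay 676 bp from the nearest drought-stressed peak, the others 5216 and 8922 bp. On chromosome 5 they were 15238647 to 15238802 (156 bp, score 330), 25201313 to 25201468 (156 bp, 273) and 20554776 to 20555114 (339 bp, 179), at 812, 6890 and 1539 bp. The 3 of chromosome 1 lay close together in its outer part, and those of chromosome 5 were spread over the arm.

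The highest-scored drought-stressed-only peaks were all narrow. On chromosome 1 they were 39126998 to 39127166 (169 bp, score 310), 39517759 to 39517917 (159 bp, 165) and 25738180 to 25738356 (177 bp, 142). On chromosome 5 they were 16097499 to 16097667 (169 bp, score 165), 27272358 to 27272502 (145 bp, 106) and 21149029 to 21149189 (161 bp, 93). The last lay 160 bp from a well-watered peak. The second of chromosome 1 lay 416 bp from one, and the other 4 lay 4422 bp or more away.

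**Figure D4:**
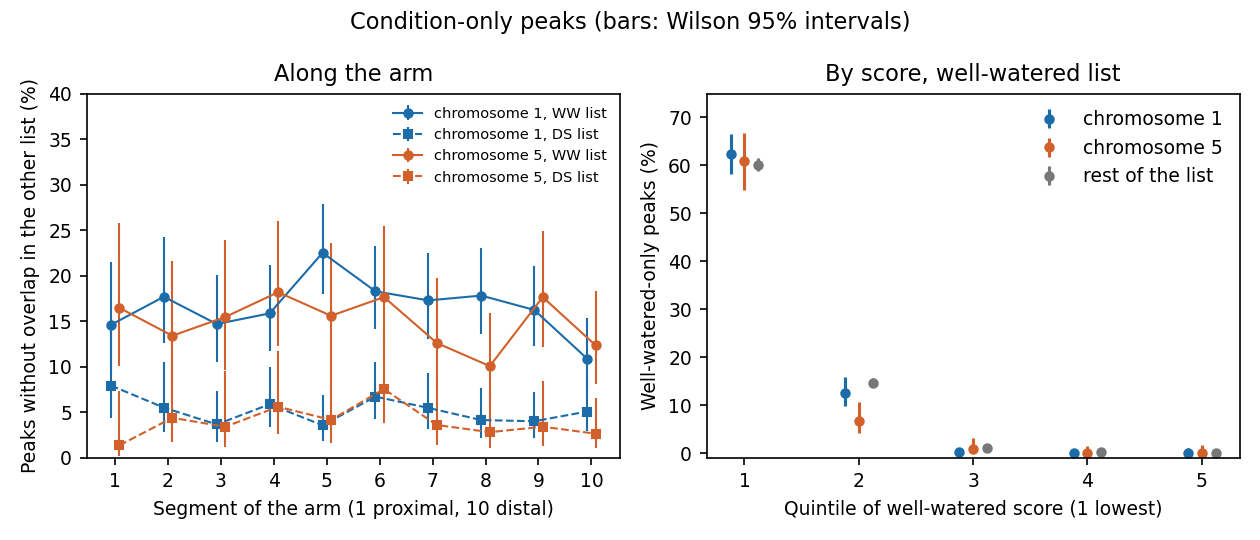
Share of peaks without overlap in the other list in percent (y axes), by segment of the arm for both arms and both lists (left) and by quintile of well-watered score for both arms and all other well-watered peaks (right). Points are shares and bars Wilson 95% intervals, WW is the well-watered and DS the drought-stressed list. The intervals of the arms overlap in each segment within a list, and in the second score quintile chromosome 5 (6.67%) lies below chromosome 1 (12.6%).

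Width change was measured in 1-to-1 pairs, peaks that overlapped each other and no further peak, placed on an arm by the midpoint of the well-watered peak. Of 1855 pairs on chromosome 1, 1399 (75.4%, 73.4% to 77.3%) were narrower in the drought-stressed list, and of 981 on chromosome 5, 756 (77.1%, 74.3% to 79.6%) were, beside 75.1% of all pairs. Wider pairs numbered 449 (24.2%) and 217 (22.1%), beside 24.2% of all pairs. The difference in the narrower share was 1.65 percentage points (-1.69 to 4.87), within counting error, and both shares were near that of all pairs.

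The median change was the same on both arms and larger than that of all other pairs combined. The median was -62 bp on chromosome 1 (-67 to -57) and -62 bp on chromosome 5 (-69 to -55), with an interval of the difference from -8.60 to 8.60. For pairs off these arms it was -51 bp (-53 to -50). The arms together lay 11 bp below them (interval of the difference -15.1 to -6.53). The long arms of the other 10 chromosomes had medians from -59 to -44 bp, and the difference from single arms was not tested. A loss of at least 100 bp was found in 667 pairs on chromosome 1 (36.0%) and 346 on chromosome 5 (35.3%), against 30.9% of the pairs elsewhere and 26.9% to 34.5% on the other 10 long arms. Those differences were 5.01 percentage points (2.77 to 7.31) and 4.32 (1.33 to 7.43). Covered length under drought was 0.829 of the well-watered length on chromosome 1, 0.839 on chromosome 5 and 0.849 elsewhere.

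The change was also compared at like width. In the narrowest quintile of mean pair width (142 to 389 bp) the median change was -31 bp on both arms, with intervals from -47 to -22 and from -58 to -14 bp, against -16 bp (-19 to -14) elsewhere. In the second quintile it was -65 bp on chromosome 1 and -56 bp on chromosome 5, against -51 bp. For the arms together the differences were -15 bp (-28.2 to -5.51) in the first and -12 bp (-25 to -1.56) in the second quintile. In the third it was -9 bp (-20.4 to 0.85), and in the 2 widest it was -4 and -2 bp, all within counting error. The intervals of the quintiles overlapped, and whether the difference varies with width was not tested. For chromosome 5 alone the differences ran from -15 to 3 bp over the quintiles, each within counting error.

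Score moved with the arms as well, since the pairs had a median well-watered score of 458 on chromosome 1, 496 on chromosome 5 and 543 elsewhere. Within quintiles of the geometric mean of both scores, the arms together had medians from -66 to -58 bp and the pairs elsewhere from -55 to -47 bp. The difference had the same sign in all 5 quintiles, from -19 to -6 bp. It was beyond counting error in the second, at -19 bp (-28.8 to -8.56), and the lower bounds of the other 4 lay at -31.1 to -14.2 bp, with upper bounds from 0.56 to 3.49 bp.

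The median shift was inward at both ends. It was 24 bp at each end on chromosome 1, and 20 bp at the left and 26 bp at the right end on chromosome 5. Over all pairs it was 20 bp at the left and 21 bp at the right end. The drought-stressed peak lay within the well-watered one at both ends in 891 pairs (48.0%) on chromosome 1 and 502 (51.2%) on chromosome 5. It reached beyond at both ends in 161 (8.68%) and 76 (7.75%). Over all pairs these shares were 47.4% and 8.92%, and the differences of the arms from them were not tested. Along the segments, the median change ran from -78.5 to -48 bp on chromosome 1 and from -85.5 to -30 bp on chromosome 5, below 0 in each.

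**Figure D5:**
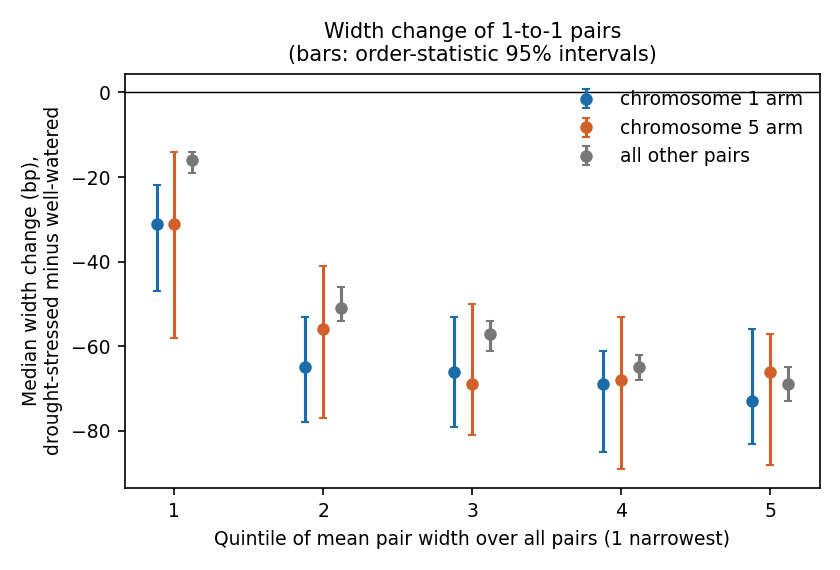
Median change of peak width in bp, drought-stressed minus well-watered (y axis), in 5 classes of mean pair width (x axis) for 1-to-1 pairs on the chromosome 1 arm, the chromosome 5 arm and elsewhere. Bars are order-statistic 95% intervals. In the narrowest class both arms stand at -31 bp and other pairs at -16 bp, and in the 2 widest classes the 3 groups overlap.

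Single pairs changed far more than the median. The largest loss on chromosome 1 took well-watered 27875727 to 27877372 (1646 bp, score 320) to drought-stressed 27875720 to 27876269 (550 bp). The largest on chromosome 5 took 14749644 to 14751128 (1485 bp, score 110) to 14750337 to 14750629 (293 bp). The largest gains were from 450 to 896 bp on chromosome 1, at well-watered 29665853 to 29666302, and from 230 to 715 bp on chromosome 5, at 21587815 to 21588044. The well-watered peaks of both gains had low scores, 50 and 41. A loss of at least 1/3 of the width was found in 185 pairs on chromosome 1 (9.97%) and 116 on chromosome 5 (11.8%), against 8.74% elsewhere and 5.79% to 10.7% on the other long arms. Only the excess of chromosome 5, 3.09 percentage points (1.17 to 5.29), was beyond counting error, and that of chromosome 1 was 1.23 (-0.11 to 2.73).

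The long arms of chromosomes 8 and 9, also related by the ancient duplication, gave a second pair for the same comparisons. Their densities were alike, with a ratio of 1.00 (0.916 to 1.10) for chromosome 9 against chromosome 8 in the well-watered and 1.01 (0.921 to 1.11) in the drought-stressed list. The well-watered interval overlapped that of chromosome 5 against chromosome 1 (0.807 to 0.929). An overlap does not settle whether the ratios of the pairs differ, which was not tested. In width, spacing, condition-only share, share of narrower pairs and median width change, neither pair of arms differed beyond counting error.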

How the data were processed

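Peaks were called by the authors, 1 list per condition. The submitters' processing notes name BWA, SAMtools, MACS2 and deepTools. Their versions, any control library, the threshold, the pooling of replicates and the build were not given in the sources used here. A deposited row gives the position, name and score of a peak, and the scale of the score is not stated. Starts are printed 1-based. The gene table at hand is of an assembly not shown to be that of the lists, so no gene or sequence was assigned. Peaks count as overlapping from 1 bp (scipy 1.17.1, numpy 2.4.6 and pandas 2.3.3 under Python 3.11.15), and the condition-only counts were checked with bedtools 2.31.1. The code was tested on simulated data. Densities carry exact Poisson intervals, ratios of density log-normal ones, shares Wilson and medians order-statistic intervals. Differences carry intervals combined from these by the square-and-add method. Other long arms run from 2 Mb beyond an approximate centromere to 2 Mb before the last peak. Members and comparisons were chosen with earlier results of these data known. Named peaks are, per arm and list, the 2 highest-scored, the 3 highest-scored condition-only and the widest, and per arm the most divided peak, the extreme width changes, the fullest and emptiest windows and the 2 longest peak-free stretches.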

Additional observations from a re-analysis of the deposited data

How the results depend on the processing

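Of 65 recomputed differences and ratios between the arms, 59 stayed within the interval of the reported one and 6 moved outside it. The 59 include values that could not change. Equal numbers of peaks were reached by cutting the well-watered list alone, which left drought-stressed density, width and spacing as reported. With only peaks at or above the median score, the ratio of drought-stressed density became 0.953 (0.856 to 1.06), no longer leaving out 1, and the ratio of median spacing became 0.888 in the well-watered and 0.921 in the drought-stressed list, below 1 where it had been above. With chromosome 1 cut to the length of chromosome 5 from its proximal limit, the drought-stressed density ratio became 0.947, and from its distal limit the ratios became 0.766 (well-watered) and 0.774 (drought-stressed). The 12 recomputed values of rho along an arm ran from 0.641 to 1, the value for chromosome 5 in both lists with 5 fractions. The cause was not tested where scores were filtered; the cuts compare other stretches of chromosome 1. With limits 1 Mb inward the well-watered spacing ratio was 1.09 (1.01 to 1.19). With equal numbers of peaks the well-watered-only difference was -3.19 percentage points (-5.15 to -1.08), and the well-watered width difference 31 bp (4.58 to 50.8); both then left out 0. Above the median score that width difference was 29 bp (5.68 to 49.5), and the well-watered density ratio 0.915 had an interval (0.826 to 1.01) that included 1. The cuts by length, the shared members and the standardised shares were added after the data were seen. No paired analysis was possible because the replicates of a condition share 1 list, which also means that none could be omitted. What can be said of low-scored peaks is limited by the unknown depth.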
